A study of Homo sapiens with 4 samples.

Results

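KMS28BM is a human multiple myeloma line, grown from malignant plasma cells of the bone marrow, that carries the t(4;14) translocation. Its transcriptome was compared between 2 libraries: the control culture carried a luciferase construct, and the other carried a stable PKCα knockdown. These are 2 of the 4 libraries of the series. The other 2 are the same pair of constructs in KMS18, a second t(4;14) myeloma line, and they serve below only for values side by side. Both KMS28BM libraries share the translocation, so it does not separate them. Whether each culture was a clone or a pool, and the sequence of the knockdown construct, are not given in the sources used here.

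PKCα, encoded by PRKCA, is a serine/threonine kinase that is activated by calcium and diacylglycerol at membranes. Plasma cells are professional secretory cells: XBP1, IRF4 and PRDM1 hold their identity, and a large endoplasmic reticulum (ER) folds and exports immunoglobulin. The t(4;14) translocation places NSD2, a histone H3 lysine methyltransferase, and FGFR3, a receptor tyrosine kinase, under immunoglobulin heavy chain control.

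The libraries held 39507281 expected counts (control) and 39100504 (knockdown). Levels are FPKM, fragments scaled to gene length and library size, and a difference is log2(FPKM + 1) in the knockdown minus that in the control; the added 1 shrinks differences of genes with low FPKM. With 1 library per construct there was no replicate check and no test. The 95% intervals given are exact intervals for the ratio of library-scaled counts and cover counting error only. Of 22187 genes, 11455 reached 1 FPKM in at least 1 of the 2 libraries and were compared. Their median difference was 0.05, 56.9% were higher in the knockdown library, and 89.9% differed by less than 1.5-fold. Past 2-fold (a difference of 1), 142 genes were higher, 1.24% of those compared, and 86 were lower, 0.751%. Past 1.5-fold the counts were 711 higher (6.21%) and 447 lower (3.9%). In bulk RNA, fewer cells of a kind and less RNA per cell cannot be told apart.

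The label plasma cell was checked against markers. All 10 plasma cell markers reached 1 FPKM, with a summed level of 8698 FPKM in the control and 7957 FPKM in the knockdown. JCHAIN made up most of both sums, at 6689 and 6760 FPKM. Of the 10 markers, 6 were lower past 1.5-fold and none was higher, with a median difference of -0.61. Markers of T cells summed to 1.19 and 3.55 FPKM, with 5 of 10 at 0 in both libraries, and CD3E alone reached 1 FPKM (1 and 3.27 FPKM). NK cell markers summed to 1.71 and 1.85 FPKM, monocyte and macrophage markers to 0.61 and 0.72 FPKM, and stromal markers to 0.85 and 1.32 FPKM. Endothelial markers summed to 4.48 and 3.30 FPKM and erythroid markers to 5.44 and 7.19 FPKM. B cell markers had the largest sum outside plasma cells, 67.34 and 79.87 FPKM, and of the 10 only BANK1 (51.84 and 72.93 FPKM) and CR2 (14.23 and 5.63 FPKM) reached 1 FPKM.

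**Figure D1:**
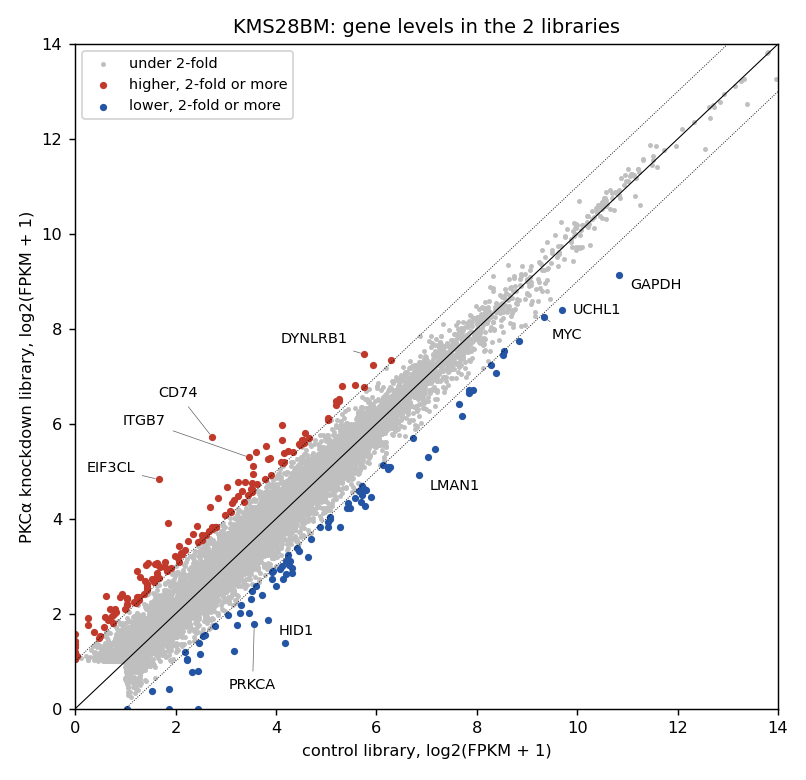
Level of each of the 11455 genes compared in the control library (x axis) and the PKCα knockdown library (y axis), both as log2(FPKM + 1). Red points are the 142 genes higher by 2-fold or more, blue points the 86 lower by 2-fold or more, and dotted lines mark 2-fold; CD74 and EIF3CL lie farthest above the diagonal among the genes labelled, and GAPDH is the most abundant blue point.

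The targeted gene was lower in the library labelled as its knockdown. PRKCA (ENSG00000154229) was at 10.86 FPKM in the control and 2.43 FPKM in the knockdown, 22.4% of the control. Its expected counts were 3414 and 741, and the log2 ratio of library-scaled counts was -2.19 (95% interval -2.31 to -2.07). Of the 8 PKC and protein kinase D genes compared, PRKCA was the only 1 past 1.5-fold. The kinases nearest to it in abundance were close in both libraries: PRKCI, an atypical PKC, was at 11.68 and 8.65 FPKM, and PRKCD, a PKC that does not need calcium, at 5.68 and 4.89 FPKM. The kinases PRKD2 and PRKD3, which act downstream of diacylglycerol, were at 40.10 and 44.86 FPKM and at 40.98 and 42.19 FPKM.

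Most of the largest decreases shared a short sequence in their 3′ untranslated regions (3′ UTRs). Of the 15 genes with the lowest differences at 5 FPKM or more, 14 had an annotated 3′ UTR, and 11 of these held CAGTCTA or AGTCTAA; of the 15 highest, none of the 14 with a 3′ UTR did. Matches were sought on the transcript's own strand in GENCODE version 29 transcripts, and the sequences nest, since CAGTCTAA holds both 7-letter forms and all hold AGTCTA. Sites of 9 genes lower past 2-fold and of PRKCA are shown as examples; others with a match, such as PRRC1, PUDP and SEC63, are not printed. Capitals mark the match, and coordinates are GRCh38.
LMAN1: ttaaattgcttcatAGTCTAA, chr18:59331004-59331024, minus strand, 3′ UTR.
RCN1: cttatttcagaacaAGTCTAA, chr11:32104937-32104957, plus strand, 3′ UTR.
ATP2A2: ttaatttgatatcaCAGTCTAA, chr12:110346895-110346916, plus strand, 3′ UTR.
SSR1: tccataaatctcccCAGTCTAA, chr6:7281754-7281775, minus strand, 3′ UTR.
SEC24A: aatttaatgtattgAGTCTAA, chr5:134727484-134727504, plus strand, 3′ UTR.
HID1: gccgacgaggggctCAGTCTA, chr17:74951542-74951562, minus strand, 3′ UTR.
HK2: aatccttgagcactCAGTCTA, chr2:74893240-74893260, plus strand, 3′ UTR.
UCHL1: tatacccccccatgCAGTCTAA, chr4:41268128-41268149, plus strand, 3′ UTR.
NRAS: gctgtttctttgagCAGTCTAA, chr1:114704883-114704904, minus strand, 3′ UTR.
PRKCA: aagacgagctatttCAGTCTA, chr17:66786889-66786909, plus strand, coding sequence.
PRKCA also held a 7-letter match in an annotated 3′ UTR. The examples were chosen after their values were seen. UCHL1, a deubiquitinase, was at 829.97 FPKM in the control and 334.81 FPKM in the knockdown.

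Across all genes the difference followed the length of the match. The 313 genes with CAGTCTAA in a 3′ UTR had a median difference of -0.19, and 3.83% of them were lower past 2-fold. The 1438 genes with a 7-letter but no 8-letter match had a median of -0.07, with 2.09% lower past 2-fold. The 1277 genes with AGTCTA alone had a median of -0.01 and 0.705% lower. The 7636 genes without it had a median of 0.09, and 0.367% of them were lower. A 7-letter match was present in 16.4% of the 10664 compared genes with a 3′ UTR, in 53.2% of those lower past 2-fold (42 of 79) and in 9.30% of those higher past 2-fold. The letters came from an earlier search of these data, so these shares are a description. In KMS18 the 4 medians, in the same order, were -0.18, -0.07, -0.03 and 0.06.

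**Figure D2:**
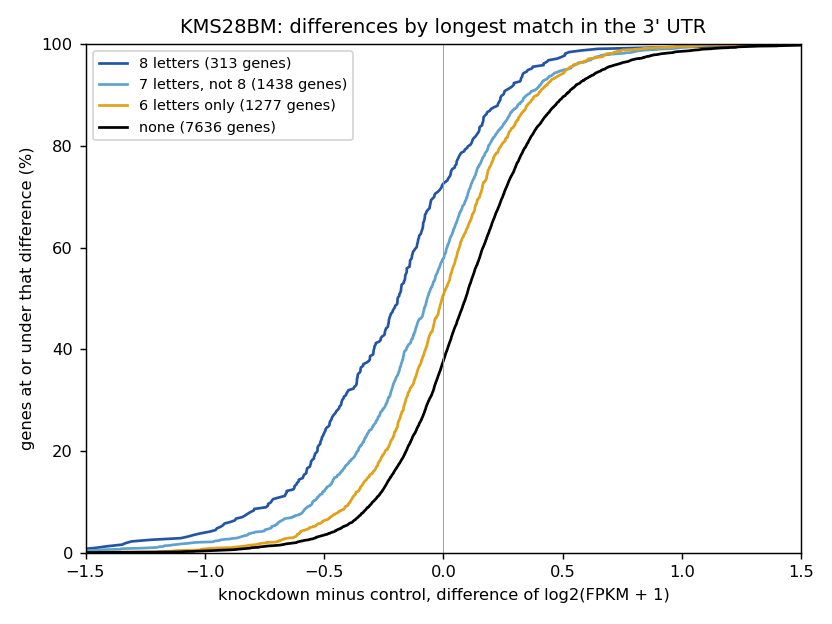
Cumulative share of genes (y axis, %) at or under each difference of log2(FPKM + 1), knockdown minus control (x axis), for genes grouped by the longest match to the 8-letter sequence in any annotated 3′ UTR. The curves lie in the order of the match, with 72.5% of the 313 genes of the longest match below 0 against 37.7% of the 7636 genes without one.

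In a ranking made after these values were seen, CAGTCTA had the lowest median of 16166 7-letter sequences held by at least 100 genes. CAGTCTAA likewise had the lowest of 50286 8-letter sequences. The sequences at the other end of the ranking were rich in G and C: CGCCGCG had the highest 7-letter median, at 0.24. The 3′ UTRs of genes with the 8-letter match were long, at a median of 2592 bases against 764.5 bases in genes without a match, and their median GC content was 38.1% against 44.3%. Lengths and GC contents, here and below, are of 1 transcript per gene, while matches were sought in all annotated 3′ UTRs. Groups by length or GC therefore do not hold the searched sequence equal. When genes were divided into 3 equal groups by 3′ UTR length, those with a 7-letter match had a median between -0.09 and -0.08 in every group. Those without AGTCTA had one between 0.08 and 0.10. In 3 equal groups of low, middle and high GC the medians with the match were -0.14, -0.08 and 0.00, and those without were 0.02, 0.06 and 0.19. Whether the knockdown construct acts on these sites was not tested.

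The chromosomes with the highest and lowest median differences also had the highest and lowest GC content, though the order between them was not strict. Chromosome 19 had the highest median difference, 0.18 over 765 genes, and the highest median 3′ UTR GC content, 54.8%. Chromosome 13 had the lowest, -0.04 over 178 genes, and the lowest GC content, 34.9%. Chromosome 22, at 53.4% GC, had a median of 0.08, under the 0.09 of chromosome 11, at 45.9% GC. On chromosome 19, 86 of 765 genes were higher and 11 lower past 1.5-fold. Over all genes compared the shares were 6.21% and 3.9%.

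Transcripts of genes that carry cargo out of the ER mostly had differences below 0. LMAN1, a lectin that ferries glycoproteins from the ER to the Golgi, was at 114.47 FPKM in the control and 29.17 FPKM in the knockdown, a difference of -1.94. SEC24A and SEC24D, which select cargo for COPII vesicles, were at 53.50 and 18.41 FPKM and at 58.47 and 20.94 FPKM, and SEC24D has no AGTCTA in its annotated 3′ UTRs. Of 41 ER to Golgi transport genes compared, 4 were lower and none higher past 1.5-fold; their median was -0.28, with 35 of 41 below 0, against 0.05 for all genes. TMED10 and COPA, of the early secretory coat and cargo machinery, were at 313.37 and 209.41 FPKM and at 69.25 and 46.30 FPKM, both under 1.5-fold. The medians with and without AGTCTA were close, -0.28 over 17 genes and -0.29 over 24. Of the 4 genes lower past 1.5-fold, however, 3 were among the 17 with AGTCTA and 1 among the 24 without it.

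Genes of the translocon, through which new secretory proteins enter the ER, were mostly lower. Past 1.5-fold 10 of 29 were lower and none was higher, with a median of -0.38. SSR1 and SSR3, subunits of the translocon-associated protein complex, were at 206.31 and 70.57 FPKM and at 333.85 and 134.39 FPKM. SEC63, which assists the channel, was at 53.85 and 23.39 FPKM, and RPN1, an oligosaccharyltransferase subunit, at 365.11 and 173.81 FPKM. The 6 members with AGTCTA had a median of -1.12 and the 23 without it -0.25.

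Folding factors and stress response genes of the ER were mostly below 0, with smaller differences. Of 25 unfolded protein response genes, 22 were below 0, 6 were lower past 1.5-fold and none higher, and the median was -0.36, the same without the 7 members with AGTCTA. XBP1, its transcription factor, was at 472.19 and 265.05 FPKM, and PDIA4, a disulfide isomerase, at 572.87 and 328.21 FPKM. HSPA5, the main ER chaperone, was at 590.87 and 382.94 FPKM, with a difference of -0.62. In the ER calcium list 3 of 18 were lower past 1.5-fold, with a median of -0.06. ATP2A2, the SERCA2 calcium pump, was at 142.91 and 43.23 FPKM and RCN1, a calcium-binding ER protein, at 129.93 and 38.65 FPKM, while STIM1, the ER calcium sensor, was at 39.24 and 58.48 FPKM.

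Plasma cell identity genes had the lowest median of the 41 gene lists, which do not include the marker lists. Of 21 compared, 10 were lower past 1.5-fold and none was higher, and the median was -0.50; without members that hold AGTCTA it was again -0.50 over 17 genes. The 3 members with AGTCTA had a median of -1.02. Past 1.5-fold 2 of these 3 were lower, and 8 of the 17 without it. SLAMF7, the surface antigen bound by elotuzumab, holds AGTCTA in a 3′ UTR. It was at 227.90 and 103.94 FPKM, with a log2 count ratio of -1.12 (95% interval -1.15 to -1.09). MZB1, an ER cofactor of antibody secretion, was at 699.59 and 397.93 FPKM, SDC1 (CD138) at 217.03 and 142.75 FPKM, and TNFRSF17 (BCMA) at 190.35 and 124.02 FPKM. PRDM1 and IRF4 were closer, at 46.43 and 42.52 FPKM and at 113.39 and 90.77 FPKM, and CD38 was at 4.99 and 5.99 FPKM.

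Immunoglobulin transcripts took 1.76% of counts in the control and 1.11% in the knockdown. The lambda constant gene IGLC2 was at 15861 and 9826 FPKM and the variable segment IGLV3-10 at 10691 and 6857 FPKM, differences of -0.69 and -0.64. JCHAIN, which joins secreted IgA and IgM, was at 6689 and 6760 FPKM. IGHA1, the heavy chain constant gene of IgA, was low and went the other way, at 2.59 and 14.12 FPKM. IGLC2, IGLV3-10 and JCHAIN were picked after their values were seen, and reads can be shared among immunoglobulin segments.

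**Figure D3:**
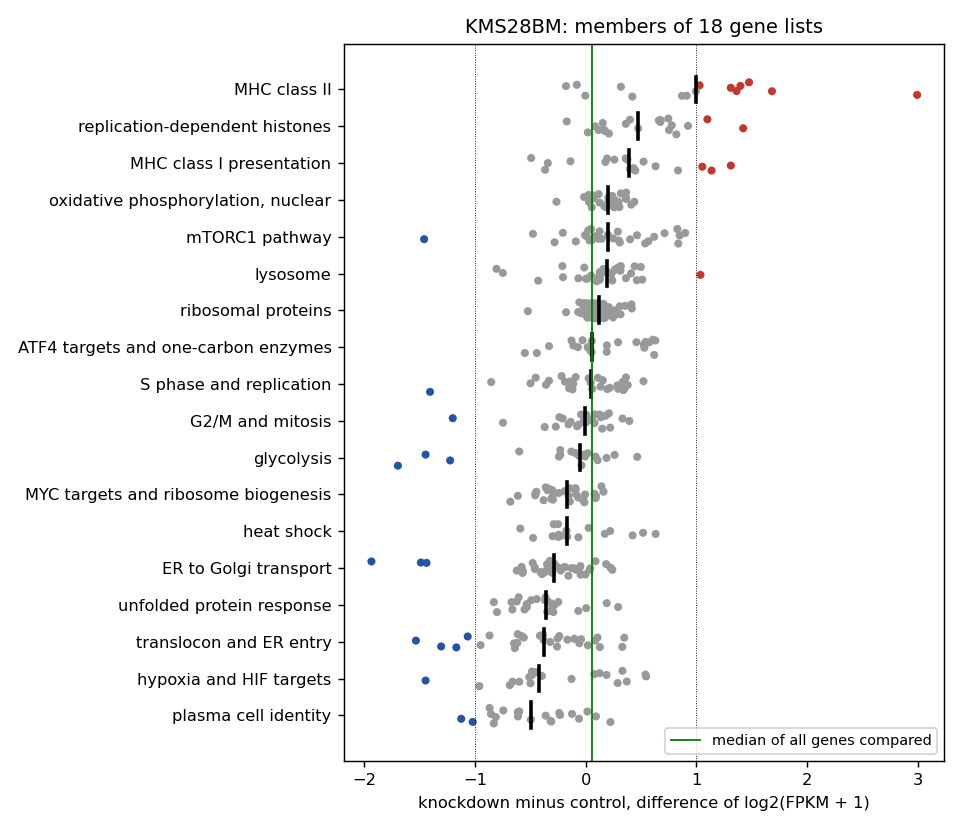
Difference of log2(FPKM + 1), knockdown minus control (x axis), for every member at 1 FPKM or more of 18 gene lists (y axis), with a black bar at each list's median and a green line at the median of all genes. Points past 2-fold are red (higher) or blue (lower); the plasma cell identity list lies lowest at -0.50 and MHC class II highest at 0.995.

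MYC, a transcription factor of growth and ribosome production, was at 645.70 FPKM in the control and 304.04 FPKM in the knockdown, a difference of -1.08, and its 3′ UTR holds no AGTCTA. NRAS, a GTPase often mutated in myeloma, was at 28.23 and 13.16 FPKM. Of 30 MYC targets and ribosome biogenesis factors, 25 were below 0, but only 2, the nucleolar proteins GNL3 (72.34 and 44.73 FPKM) and NOP56 (281.19 and 183.41 FPKM), were past 1.5-fold. The 69 ribosomal protein genes had a median of 0.12, with 61 above 0 and none past 1.5-fold. Of the translocation genes, NSD2 was at 171.64 and 111.87 FPKM (-0.61) and FGFR3 at 592.83 and 526.69 FPKM (-0.17). Both NSD2 and FGFR3 hold AGTCTA in a 3′ UTR. The 2 genes of that list without it, LETM1 and TACC3, had a median of -0.0005.

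Cell cycle genes had medians near that of all genes. The S phase list (32 genes) had a median of 0.05 and the G2/M list (29 genes) one of -0.01. In each, 2 genes were lower past 1.5-fold: RPA3, a subunit of the single-strand DNA binding complex, at 14.91 and 5 FPKM, CDC6, a licensing factor, at 45.18 and 24.55 FPKM, MAD2L1, a spindle checkpoint protein, at 51.21 and 21.70 FPKM, and HMMR at 30.67 and 17.86 FPKM. All but CDC6 hold a 7-letter match. In KMS18 the medians of the same genes were -0.32 and -0.28; the difference between the lines was not tested.

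Glycolytic and hypoxia genes included both large decreases and small increases. GAPDH was at 1822.73 FPKM in the control and 561.50 FPKM in the knockdown, a log2 count ratio of -1.68 (95% interval -1.70 to -1.66), without AGTCTA in its 3′ UTRs; it has many processed pseudogenes, which can share its reads. HK2, the first enzyme of glycolysis, was at 24.00 and 8.17 FPKM and PGAM1, phosphoglycerate mutase, at 198.21 and 84.21 FPKM, both with a match. PFKL and PFKP, of the phosphofructokinase step, were at 33.98 and 47.28 FPKM and at 92.44 and 110.94 FPKM. The 20 glycolysis genes had a median of -0.05, with 4 lower past 1.5-fold. The 20 hypoxia genes had a median of -0.42 with 5 lower past 1.5-fold; the 5 members with AGTCTA had a median of -0.69 and the 15 without it 0.08.

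Mitochondrial energy genes differed little. Of 33 nuclear genes of oxidative phosphorylation, 31 were above 0 and none was past 1.5-fold, with a median of 0.20. In the citric acid cycle list IDH2, mitochondrial isocitrate dehydrogenase, was at 51.19 and 80.68 FPKM and PC, pyruvate carboxylase, at 10.30 and 17.58 FPKM, whereas citrate synthase (CS) was at 117.61 and 64.17 FPKM. Past 1.5-fold 2 of 26 genes of that list were higher and 1 was lower. The 12 mitochondrial genome transcripts lay between -0.21 (MT-ND4L) and 0.13 (MT-ND3), with a median of -0.04 and 8 below 0.

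Genes of antigen presentation were higher in the knockdown library. Of 15 genes of the MHC class II list compared, 10 were higher past 1.5-fold, 7 of them past 2-fold, and none was lower, with a median of 0.995. The other 3 of the 18 listed, HLA-DMB, HLA-DOA and HLA-DOB, stayed under 1 FPKM. HLA-DRA, HLA-DPA1, HLA-DPB1 and HLA-DRB5 passed that floor through the knockdown library alone, so they had to be higher; of the 11 genes at the floor in the control, 6 were higher past 1.5-fold, with a median of 0.87. CD74, the invariant chain that guides class II molecules, was at 5.63 FPKM in the control and 51.82 FPKM in the knockdown, a log2 count ratio of 3.23 (95% interval 3.05 to 3.41). The class II chains HLA-DRA, HLA-DRB1 and HLA-DPA1 were at 0.91 and 4.31, 1.34 and 6.51, and 0.73 and 3.29 FPKM. CIITA, the transactivator of class II genes, was at 2.11 and 4.68 FPKM. The lysosomal enzymes CTSS, which trims the invariant chain, and IFI30, a thiol reductase, were at 10.61 and 29.58 and at 3.18 and 9.75 FPKM. The DNA-binding partners RFX5, RFXANK and RFXAP were the 3 members below 0, at 67.94 and 59.91, 59.97 and 56.65, and 2.73 and 2.72 FPKM. HLA genes are summed over several identifiers and are uncertain; CD74, CIITA, CTSS and IFI30 have 1 identifier each.

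KMS18 holds class II transcripts at levels far above those of KMS28BM, at 7267 and 8842 FPKM for CD74 and 2390 and 3265 FPKM for HLA-DRA. The level of transcripts abundant in KMS18 was therefore read in the KMS28BM libraries, over 77 genes picked after their values were seen: at 20 FPKM or more in both KMS18 libraries, each at least 50 times the KMS28BM control. The class II genes are among them, and the rule takes genes that are low in the control library. Their median level, as a percentage of KMS18, was 0.0811% in the control and 0.188% in the knockdown, and the highest was 1.59% and 3.75%. They did not move alike. The 6 light chain variable segments among them stood at 0.0121% of their summed KMS18 level in the control and 0.00938% in the knockdown. Of 4 MAGEA genes, MAGEA1, MAGEA3 and MAGEA6 had no counts in either KMS28BM library, and MAGEA12 had 0 and 1. LCP1, an actin-bundling protein, had 78 and 604 counts, ESRP1, a splicing regulator, 34 and 223, CCND2, a D cyclin, 0 and 27, and CSAG1 0 and 8. CD74 stood at 0.0775% and 0.586% of its KMS18 level, and HLA-DRA at 0.0381% and 0.132%. The part of carry-over between libraries in the class II values was not tested.

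In the class I presentation list 5 of 18 genes were higher past 1.5-fold and none lower, with a median of 0.39. That median was 0.0602 when symbols with several identifiers, most of them HLA region genes, were left out. It was then close to the 0.05 of all compared genes of 1 identifier. The genes named next include symbols with several identifiers, whose values are uncertain. TAPBP (tapasin), which loads peptides, was at 59.97 and 150.28 FPKM, TAP1, a peptide transporter subunit, at 31.86 and 67.16 FPKM, and PSMB9, an immunoproteasome subunit, at 21.83 and 49.22 FPKM. HLA-B and its partner B2M were already abundant, at 671.31 and 915.56 FPKM and at 2175 and 2461 FPKM. PDIA3 and CALR, ER members of the same list, were lower in the knockdown, at 577.96 and 455.62 FPKM and at 1089 and 843.62 FPKM, both under 1.5-fold. Among 18 interferon response genes 5 were higher and 1 lower past 1.5-fold, and 4 of the 16 at the floor in the control were higher; the other 16 of 34 listed were under 1 FPKM. ISG15, a ubiquitin-like modifier, was at 9.94 and 20.56 FPKM, IRF1, a transcription factor, at 22.51 and 40.36 FPKM, and ISG20, an exonuclease, at 30.42 and 16.69 FPKM.

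**Figure D4:**
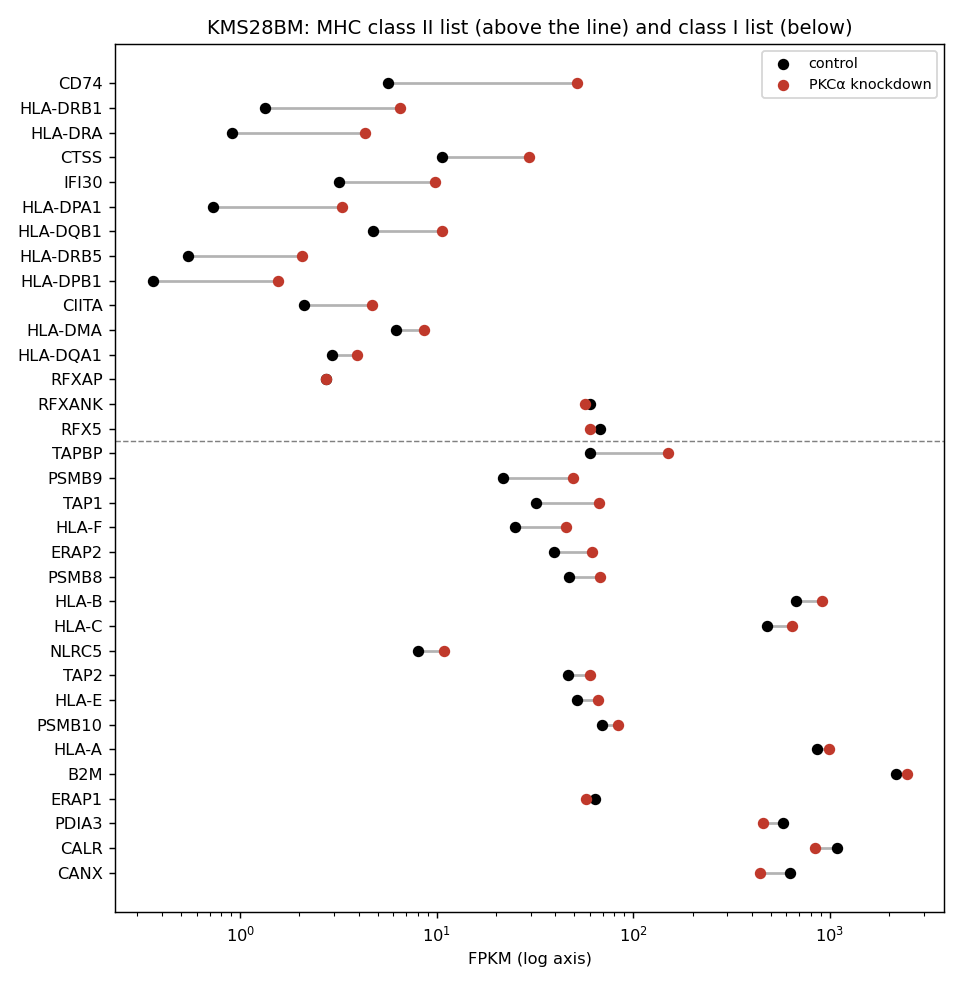
FPKM (x axis, log scale) of every compared member of the MHC class II list (15 genes) and the class I presentation list (18 genes), on the y axis above and below the dashed line, in the control library (black) and the PKCα knockdown library (red), 1 library each, so that no error bar can be drawn. Red lies to the right of black for 12 of the 15 and for 14 of the 18, and CD74 has the longest line (5.63 and 51.82 FPKM).

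Several surface and transport genes were among the largest single increases, while their lists were mixed. Past 1.5-fold 2 of 23 integrin and adhesion genes were higher and 1 lower, and 3 of 20 amino acid transporters were higher and 3 lower. ITGB7, the β7 integrin, was at 10.09 and 38.22 FPKM, NECTIN1, a cell adhesion molecule, at 10.73 and 33.45 FPKM, and LILRB4, an inhibitory receptor of 5 identifiers, at 11.09 and 41.66 FPKM. SLC6A9, a glycine transporter, was at 16.41 and 62.05 FPKM, while SLC7A5, the large neutral amino acid transporter, was at 310.57 and 149.97 FPKM. DYNLRB1, a dynein light chain, was at 53.07 and 175.94 FPKM and SERPINH1, the collagen chaperone HSP47, at 38.98 and 110.62 FPKM. ARNTL (BMAL1), the core activator of the circadian clock, was at 7.12 and 24.60 FPKM, while NR1D1, a repressor of it, was at 14.76 and 8.34 FPKM. No other of the 17 circadian clock genes compared was past 1.5-fold, and the median of that list was -0.02. EIF3CL had the highest difference of all, 3.17 (2.17 and 27.45 FPKM), but it is a near copy of EIF3C, and the sum of both was 211.73 and 201.07 FPKM, a difference of -0.07.

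Of 31 mTORC1 pathway genes 6 were higher and 1 lower past 1.5-fold, with a median of 0.20. DEPTOR, an mTOR inhibitor prominent in myeloma, was at 64.73 and 115.64 FPKM, LAMTOR1, a lysosomal anchor of mTORC1, at 56.52 and 106.18 FPKM, and SGK3, a kinase related to AKT, at 8.41 and 2.42 FPKM. Of 21 replication-dependent histone genes 10 were higher past 1.5-fold and none lower, with a median of 0.47. A further 9 listed histone genes were under 1 FPKM, and 2 passed it through the knockdown alone; of the 19 at the floor in the control 9 were higher. HIST1H2AG was at 1.96 and 5.34 FPKM and HIST1H2BD at 8.40 and 15.11 FPKM, and near-identical copies make single histone genes uncertain. Of 15 BCL2 family genes 2 were higher and none lower past 1.5-fold, with a median of 0.16. BCL2L11 (BIM), a death-promoting BCL2 protein, was at 15.23 and 28.19 FPKM. Survival genes went both ways: MCL1 was at 51.22 and 38.28 FPKM, under 1.5-fold, and BCL2A1 was higher, with a difference of 0.67.

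Targets of ATF4, the transcription factor of the amino acid response, had a median of 0.05, the same as all genes. Of 23 compared, 3 were higher past 1.5-fold and none lower: PSPH, of serine synthesis, at 25.22 and 39.54 FPKM, SESN2, a leucine sensor, at 57.07 and 88.15 FPKM, and TRIB3, a pseudokinase, at 18.34 and 28.44 FPKM. In KMS18 the same 3 genes were at 17.48 and 16.17, 32.05 and 27.00, and 18.15 and 15.69 FPKM, and the list's median was -0.33 there. SLC7A11, the cystine transporter of the same list, was at 13.26 and 8.74 FPKM here, under 1.5-fold. The difference between lines was not tested.

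The genes past 2-fold in KMS28BM mostly had the same sign in KMS18, where 96 of 11742 genes were higher past 2-fold (0.818%) and 76 lower (0.647%). Among 10599 genes at 1 FPKM in both lines, 121 were higher here and 66 in KMS18, with 24 shared, 19.8% and 36.4% of each list. Of the 75 lower here and 68 lower there, 36 were shared, 48.0% and 52.9%. The sign was the same in KMS18 for 111 of the 121 higher genes and for 70 of the 75 lower genes. Their median KMS18 differences were 0.72 and -0.99, against 0.03 for all 10599. Some of the largest decreases were in genes of low KMS18 level, where the added 1 shrinks a difference. HID1, a protein of secretory granule biogenesis, was at 13.27 and 2.63 FPKM here and 1.43 and 0.76 FPKM in KMS18. The readthrough gene TMED7-TICAM2 was at 7.98 and 1.34 FPKM here. In KMS18 it was at 0.90 and 0.93 FPKM, under 1 FPKM and so outside the 10599 genes.

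**Figure D5:**
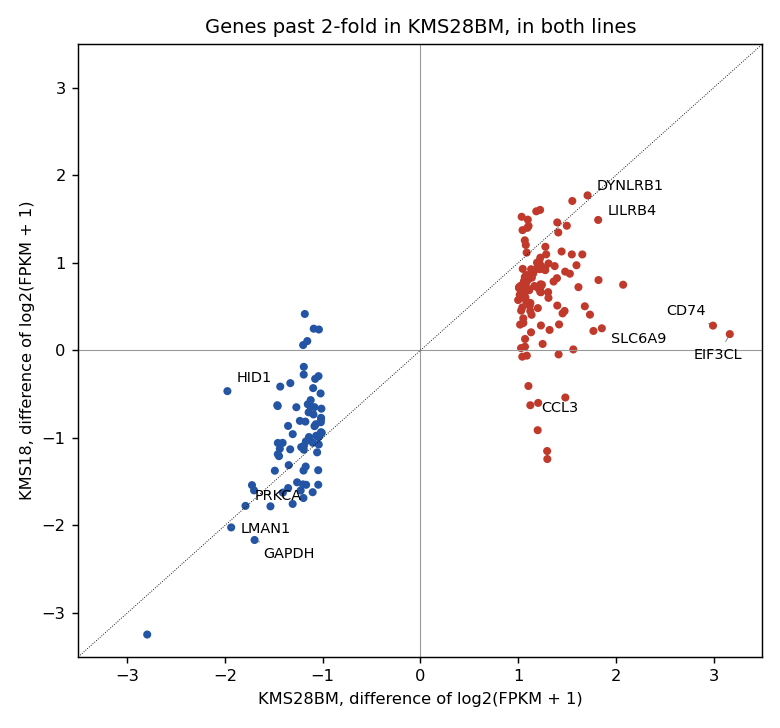
Difference of log2(FPKM + 1), knockdown minus control, in KMS28BM (x axis) and KMS18 (y axis) for the 121 higher (red) and 75 lower (blue) genes past 2-fold in KMS28BM that reached 1 FPKM in both lines; the dotted line marks equal differences. 111 red points lie above 0 and 70 blue points below 0 on the y axis, and CD74 and EIF3CL lie far to the right at small KMS18 differences.

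Some changes could be measured only in KMS28BM. Genes past 2-fold here, at 5 FPKM or more, and under 0.5 FPKM in both KMS18 libraries were picked after their values were seen. Among those lower, SULF1, an extracellular heparan sulfatase, was at 46.65 and 20.61 FPKM, USP2, a deubiquitinase, at 69.10 and 33.87 FPKM, and HRC, a calcium-binding protein of the sarcoplasmic reticulum, at 17.32 and 7.59 FPKM. Among those higher, RASD1, a small GTPase induced by glucocorticoids, was at 21.84 and 48.86 FPKM and PEG10, an imprinted gene derived from a retrotransposon, at 5.70 and 13.02 FPKM. Whatever their KMS18 level, 9 genes were under 0.1 FPKM in the control and at 1 FPKM or more in the knockdown, and 3 the other way. Among the former HIST2H2AA4 was listed at 0 and 1.68 FPKM, and among the latter AC022149.1 at 4.47 and 0 FPKM.

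The genes past 2-fold were also described by abundance and 3′ UTR. The median of their mean level over both libraries was 14.95 FPKM for the 86 lower genes and 7.76 FPKM for the 142 higher, against 12.72 FPKM for all compared. The median GC content of the 3′ UTR was 38.5% in the lower and 50.2% in the higher genes, against 42.2% for all, and the median 3′ UTR length was 1283 and 793 bases against 997.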

How the data were processed

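Libraries were made from 100 ng of total RNA with a TruSeq version 2 kit, per the labels' protocols; this kit does not mark strand. The authors deposited per gene an expected count, which need not be whole, and an FPKM value, per the file headers. STAR, Bowtie2, HISAT, GRCh37 and hg19 are named without roles in the submitters' processing notes. The counting step is not given in the sources used.

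The 23844 identifiers were added up by symbol, for expected counts and for FPKM alike (470 of the genes compared have several identifiers). Expected counts were rounded for the intervals. The interval code was run on counts simulated with counting error only, as the intervals assume. That run cannot show how they fare with variation between cultures or with reads shared among genes. Sequences came from GENCODE version 29 transcripts, GRCh38, matched by gene identifier (10664 of 11455 genes with a 3′ UTR).

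The members, the 41 gene lists, the 8 marker lists and the sequences were chosen with earlier results of these data known. Genes named are the PKC family, the 15 highest and lowest at 5 FPKM, the 10 highest and lowest at 100 FPKM, 6 per direction found in 1 library, 5 with FPKM and count ratios apart and up to 6 per list. Members named beyond these, among them SDC1, PRDM1, IRF4, CD38, the RFX genes, HLA-B, B2M, PDIA3, LCP1, ESRP1, CCND2 and CSAG1, were chosen after their values were seen. Alternatives used other pseudocounts, floors and scalings (edgeR 4.0.16 in R 4.3.3 for TMM). Python 3.11.15, scipy 1.17.1.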

Additional observations from a re-analysis of the deposited data

Results flagged for a closer look

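CCL3, a chemokine that promotes osteoclasts, was higher in the KMS28BM knockdown and lower in the KMS18 knockdown. It was at 2.10 and 5.76 FPKM in KMS28BM, a difference of 1.12, and at 37.89 and 24.19 FPKM in KMS18, a difference of -0.63. It is summed over 3 identifiers. FSBP also went opposite ways: it was listed at 0 and 1.46 FPKM in KMS28BM, a difference of 1.30, and at 1.86 and 0.21 FPKM in KMS18, a difference of -1.24. In KMS28BM FSBP passed the floor of 1 FPKM through the knockdown library alone, so it had to be higher there. Both were picked, after the values were seen, as named genes past 2-fold here and at least 0.5 the other way in KMS18, and the difference between the lines was not tested.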

How the results depend on the processing

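The count of genes past 2-fold depended on the scale, because the pseudocount of 1 FPKM shrinks low genes. Against 142 higher and 86 lower, a pseudocount of 0.1 FPKM gave 302 and 174, and 0.5 gave 203 and 119. Library-scaled counts gave 327 and 178, TMM scaling 262 and 229, and median of ratios scaling 271 and 218. A floor of 5 FPKM gave 101 and 73, no floor 142 and 86, centring on the median 117 and 104, and symbols of 1 identifier 125 and 85. The share of calls that were lower ran from 35.2% to 47.1%, with 37.7% in the counts reported. PRKCA stayed lower in each, at -2.12 and -1.95 with the smaller pseudocounts, -2.19 by library-scaled counts, -2.28 by TMM and -2.26 by median of ratios. The median of genes with CAGTCTAA was -0.0864 with no floor and -0.30 by TMM. Of 70 named genes past 2-fold, CDC42, FAAH2, FKBP11, CTSA and TAP1 were under it in at least 1 alternative, and none changed sign. Of 409 list medians over the alternatives, 44 moved by 0.1 or more. The class I presentation median was 0.0602 against 0.39 with symbols of 1 identifier. In an alternative added after seeing the data, the hypoxia median without members that hold AGTCTA was 0.08 against -0.42. No paired analysis was possible because each construct has 1 library in the line. Culture-to-culture variation is unmeasured, and genes with few counts have wide intervals.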

Other observations

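For 5 named genes the FPKM and the counts told different sizes. SYNJ2BP-COX16, a readthrough gene, was at 8.01 and 4.69 FPKM while its log2 count ratio was 0.63 (95% interval 0.32 to 0.95). SPCS3, a signal peptidase subunit, was at 133.14 and 99.66 FPKM, a difference of -0.41, with a 95% interval of the log2 count ratio from -1.05 to -0.96. BRWD1, IBA57 and FAAH2 had differences of -0.55, 0.76 and 1.19 and log2 count ratios of -0.12, 0.37 and 0.86. AC068631.2 had the lowest difference among the named genes, at 17.19 and 1.62 FPKM here and 9.34 and 0.09 FPKM in KMS18. TXNDC11 and ANXA2 were among the 10 largest decreases at 100 FPKM, at 241.63 and 103.19 FPKM and at 228.05 and 98.93 FPKM. CR2, the complement receptor of B cells, was lower here and at 8.30 and 8.70 FPKM in KMS18.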
